A study of Danio rerio with 3 samples.

Results

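Embryonic hemoglobin genes were followed through single-cell SLAM-seq of zebrafish larvae, taking hbae1, hbae1.3, hbae3 and hbae5 as alpha chains and hbbe1.1, hbbe1.2, hbbe2 and hbbe3 as beta chains. They were matched by symbol, and the 8 symbols among the 28216 of the matrices stood for 9 gene identifiers, because hbae1 joined 2 of them. The study asked how much new RNA cells make while they are being prepared, by adding the uridine analog 4-thiouridine (4sU) during preparation and reading it out as T-to-C substitutions. Each of the 3 libraries came from 10 pooled wild-type (WT) whole larvae at 48 hours post fertilization, dissociated for 30 min at 37 °C with a TrypLE mix that held 10 mM 4sU, washed without it and fixed in methanol at the end. In the "FACS and ice" library, cells were sorted by size and granularity in buffer without 4sU into a cooled tube that held 4sU, and then stood for 30 min on ice before fixation. The "FACS" library was fixed straight after the same kind of sort, and the "dissociation alone" library was fixed without any sort. All 3 therefore met 4sU during dissociation, and no library without 4sU is analyzed here. There was 1 library per group, so no difference has a replicate check, no p-value is given, and every interval covers counting error only.

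Hemoglobin of jawed vertebrates is a tetramer of alpha and beta globin chains that carries oxygen in red blood cells. Zebrafish keep alpha and beta genes side by side in clusters and use embryonic genes in the primitive erythrocytes that circulate during the first days, before adult genes take over. Because an erythrocyte fills itself with globin mRNA, these transcripts are also a common part of the free RNA that reaches droplets holding other cells. In the RefSeq annotation (assembly GRCz12tu), hbbe1.1, hbbe1.2, hbae1.3, hbae3 and the hbae1 copies neighbor each other in a cluster, and hbbe3, hbbe2 and hbae5 in another.

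The libraries held 9550 cells with 61231163 UMIs (FACS and ice), 4609 cells with 23095410 UMIs (FACS) and 11043 cells with 50313576 UMIs (dissociation alone). Median depth was 3995, 3143 and 2402 UMIs per cell in the same order. The cell lists shared 12 barcodes between FACS and ice and FACS, 28 between FACS and ice and dissociation alone, and 11 between FACS and dissociation alone. No doublet caller was run. Whole larvae were used, and in bulk sums over cells fewer erythrocytes and less globin RNA per erythrocyte cannot be told apart.

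The 8 genes together gave 6.68% of all UMIs in FACS and ice (95% Clopper-Pearson interval 6.67 to 6.69), 11.2% in FACS (11.18 to 11.20) and 6.58% in dissociation alone (6.57 to 6.59). UMI counts come from transcript ends, one per captured molecule, so levels are compared between genes without a correction for length, as UMIs per 1000000 (CPM). Most of the RNA was spread over a few genes. hbae3, an alpha gene of the larger cluster, was the most abundant of the 8. It had 19038 CPM in FACS and ice, 31301.5 CPM in FACS and 19567 CPM in dissociation alone. hbae1 followed with 14311, 27769 and 13969 CPM in the same order, below hbae3 in all 3 libraries. hbbe1.2 was the most abundant beta gene of the 8. It had 11809 CPM in FACS and ice, 19748 CPM in FACS and 11289 CPM in dissociation alone. hbae1.3 and hbbe1.1 came next, close to each other in FACS and ice and further apart in the other libraries. hbae1.3 had 8603, 15035 and 10125 CPM, and hbbe1.1 had 8332, 11968 and 7323 CPM in the same order of libraries.

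The genes of the smaller cluster were scarcer. hbbe3 had 3385 CPM in FACS and ice, 3900 CPM in FACS and 2237 CPM in dissociation alone. hbbe2 had 1289, 2116 and 1256 CPM. hbae5 was the lowest of the 8 by far, with 33.0 CPM in FACS and ice, 46.2 CPM in FACS and 31.0 CPM in dissociation alone. All neighbors in this order of levels had Poisson intervals that did not overlap within any library, but the spread between replicate libraries is unknown.

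**Figure D1:**
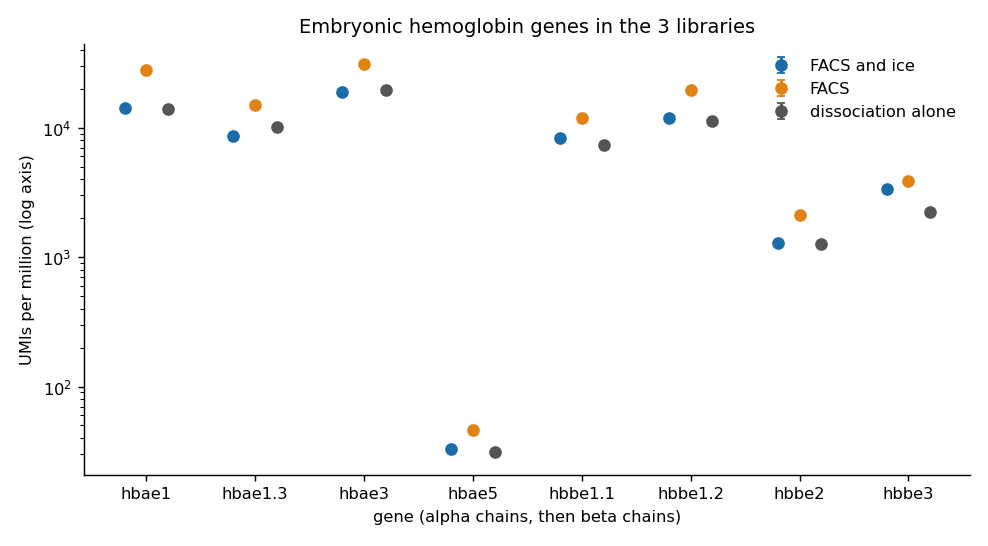
CPM on a log axis for the 4 alpha genes and then the 4 beta genes in the FACS and ice, FACS and dissociation alone libraries, as points with exact Poisson 95% intervals smaller than most points. The FACS library is above both others for every gene, and hbae5 lies between 31.0 and 46.2 CPM, far below the rest.

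Adult globin genes were nearly absent. hbaa1 had 13, 11 and 16 UMIs in FACS and ice, FACS and dissociation alone, hbaa2 had 0, 3 and 2, and hbba2 had 11, 2 and 39. hbba1, whose symbol also joined 2 identifiers, had 4 and 10 UMIs in FACS and ice, 1 and 4 in FACS, and 6 and 14 in dissociation alone. Of the globins outside blood, mb, the myoglobin gene, had 2.29, 1.99 and 13.4 CPM in the same order, and cygb1, a cytoglobin gene, had 11.95, 11.95 and 12.1 CPM. cygb2 ranged from 1.21 to 1.60 CPM over the 3 libraries, and ngb and xgb had at most 36 UMIs in any library.

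Between libraries, the 8 genes had a higher share of UMIs in FACS than in dissociation alone and about the same share in FACS and ice as in dissociation alone. The direction changed with how cells were counted. Without the top 5% of cells by UMIs in each library the share was 4.91% in FACS and ice, 5.46% in FACS and 7.12% in dissociation alone. As a mean over cells it was 4.71%, 5.04% and 4.28% in the same order, again highest in FACS. The calls that follow are over all cells. Over the 4559 genes that reached 250 UMIs in all 3 libraries, FACS over dissociation alone passed 1.5-fold higher for 4.96% and lower for 5.02%, and 6 of the 8 genes passed higher and 0 lower. hbae1 had the highest ratio of the 8, at 1.99, and hbae1.3 (1.48) and hbae5 (1.49) lay just under the limit. The median ratio was 1.66 for the 8 genes and 1.07 for all genes. FACS and ice over dissociation alone had 11.8% of genes past 1.5-fold higher and 4.41% lower. There 1 of the 8 passed, hbbe3 at a ratio of 1.51, and the median of the 8 was 1.04 beside 1.15 for all genes. FACS and ice over FACS had 4.30% of genes past 1.5-fold higher and 1.18% lower. There 5 of the 8 were lower past the limit (hbae1 0.515, hbae1.3 0.572, hbbe1.2 0.598, hbae3 0.608 and hbbe2 0.609), and the median was 0.609 beside 1.08. The 3 comparisons share libraries and are not independent of each other.

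A list of non-globin erythroid genes (heme synthesis enzymes, membrane proteins and transcription factors) moved beside them. Of 30 genes listed, 29 were in the matrices and 11 reached 250 UMIs in all 3 libraries. The median ratio of these was 1.66 for FACS over dissociation alone, with 8 of 11 past 1.5-fold higher, 1.098 for FACS and ice over dissociation alone, with 0 of 11 past it, and 0.766 for FACS and ice over FACS, with 5 of 11 lower past it. slc4a1a, the anion exchanger of the red cell membrane, had 30.8 CPM in FACS and ice, 54.0 CPM in FACS and 29.6 CPM in dissociation alone. cahz, a carbonic anhydrase of zebrafish erythrocytes, had 85.6, 133 and 71.8 CPM in the same order. So the 8 globin genes and the 11 erythroid genes that reached 250 UMIs were all highest in FACS. Not all listed genes with fewer UMIs were: hmbsa had 9.10, 7.58 and 7.43 CPM in the same order, and abcb10 had 2.84, 2.60 and 2.68 CPM.

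The share of erythroid cells was also highest in FACS. Cells with at least 5 UMIs of 10 non-globin erythroid markers made up 6.58% of FACS and ice (628 cells), 7.77% of FACS (358 cells) and 5.90% of dissociation alone (651 cells). Cells in which the 8 genes gave 50% or more of the UMIs, called globin-rich here, made up 4.54% (434 cells), 6.16% (284 cells) and 3.57% (394 cells). This is a range on a continuous share and not a cell type call, since 90, 20 and 53 cells lay between 40 and 50%, and 163, 80 and 142 between 50 and 60%. The globin-rich cells carried 71.5%, 84.3% and 71.3% of all UMIs of the 8 genes. Erythroid markers summed to 2642, 2375 and 2202 CPM in them, with 0 of the 10 markers undetected. Macrophage markers summed to 1.48, 0.581 and 0.793 CPM in the same cells, with 3, 5 and 5 of 6 markers at 0, and vessel markers to 1.69, 0.290 and 0.528 CPM, with 2, 5 and 5 of 6 at 0. Neuronal markers summed to 75.3, 74.9 and 107 CPM there, beside 1428, 1332 and 1354 CPM in cells without erythroid markers. In the same 2 sets of cells, epidermis markers summed to 179, 450 and 496 CPM, beside 2565, 2856 and 6625 CPM. Pigment markers summed to 67.1, 36.9 and 69.7 CPM, beside 197, 87.9 and 460 CPM. Cartilage markers summed to 3.80, 8.42 and 6.08 CPM, beside 278, 318 and 220 CPM. Muscle markers summed to 28.3, 9.29 and 836 CPM, beside 398, 229 and 8252 CPM, and their part in the results was not tested. In cells without erythroid markers, macrophage markers summed to 28.2, 18.7 and 15.3 CPM and vessel markers to 38.9, 35.3 and 30.1 CPM. With 2 further hemoglobin genes named below, the 8 genes took 83.4%, 87.0% and 85.8% of UMIs in globin-rich cells. In cells without erythroid markers they took 0.751%, 0.684% and 1.19%. This lowers the CPM of every other gene in globin-rich cells, so the sums do not compare the 2 sets per non-hemoglobin UMI. Among cells past the erythroid marker limit, 133, 58 and 146 had under 10% of their UMIs from the 8 genes, and there rhag, a red cell membrane channel of the Rh family, gave 64.4%, 77.8% and 52.3% of the marker UMIs. Without rhag and tspo, a choice made after seeing the data, 475, 289 and 511 cells passed.

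Among cells past the erythroid marker limit, which was set without globin genes, the median ratio of the 8 genes was 1.31 for FACS over dissociation alone, with hbae1 at 1.57, and 0.827 for FACS and ice over FACS. These cells include those with under 10% of UMIs from the 8 genes, so the ratios depend on the markers. Without rhag and tspo (chosen after seeing the data), hbae1 had 136923 CPM in FACS and 101908 CPM in dissociation alone. hbae3 had 155576 and 142524 CPM there. hbae1.3, with a ratio of 1.17 by all 10 markers, had 74148 and 74259 CPM. Among globin-rich cells the median ratio of the 8 genes was 0.980 for FACS over dissociation alone, 1.00 for FACS and ice over dissociation alone and 0.995 for FACS and ice over FACS. hbae1 (1.18, FACS over dissociation alone) and hbbe3 (1.45, FACS and ice over dissociation alone) stayed the highest of their comparisons. Globin-rich cells were chosen on the summed level of the same genes, which holds these medians near 1, so nothing is read from them.

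Globin-rich cells held a median of 4957 UMIs of the 8 genes in FACS and ice, 5853 in FACS and 5736 in dissociation alone, and at most 28260, 25439 and 17168. Of these UMIs, a median of 28.03%, 27.2% and 29.1% came from hbae3. hbae1 gave 21.1%, 24.7% and 21.5%, and its 10th to 90th percentiles over cells were 18.1 to 24.4%, 21.3 to 30.6% and 18.8 to 23.9%. hbae1.3 was about as even from cell to cell, with 11.1 to 15.5%, 11.9 to 15.9% and 13.1 to 17.7%. hbae5 was detected in 62.2%, 61.3% and 70.6% of globin-rich cells, at a median of 1 UMI, and reached at most 76 UMIs in a cell.

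hbbe1.1 behaved otherwise and split the globin-rich cells into separate sets. It made up under 1% of the 8 genes' UMIs in 74 of 434 cells in FACS and ice (17.1%, interval 13.6 to 20.9), in 74 of 284 cells in FACS (26.1%, 21.0 to 31.6) and in 101 of 394 cells in dissociation alone (25.6%, 21.4 to 30.2). Nearly all other cells had 8% or more, and only 3, 0 and 1 cells lay between 1 and 8%. The cells under 1% held a median of 17.5, 9.5 and 8 hbbe1.1 UMIs, against 760, 835.5 and 885 UMIs in the other globin-rich cells. FACS and ice had a further set of 66 cells at 20% or more, with 0 such cells in FACS and 1 in dissociation alone. The limit of 1% was chosen after seeing the values, so the split is a description with no test. hbbe1.1 also counts toward the 50% that makes a cell globin-rich, so cells with little of it pass that limit less easily. The shares of 17.1%, 26.1% and 25.6% therefore hold for globin-rich cells only and not for all erythroid cells.

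**Figure D2:**
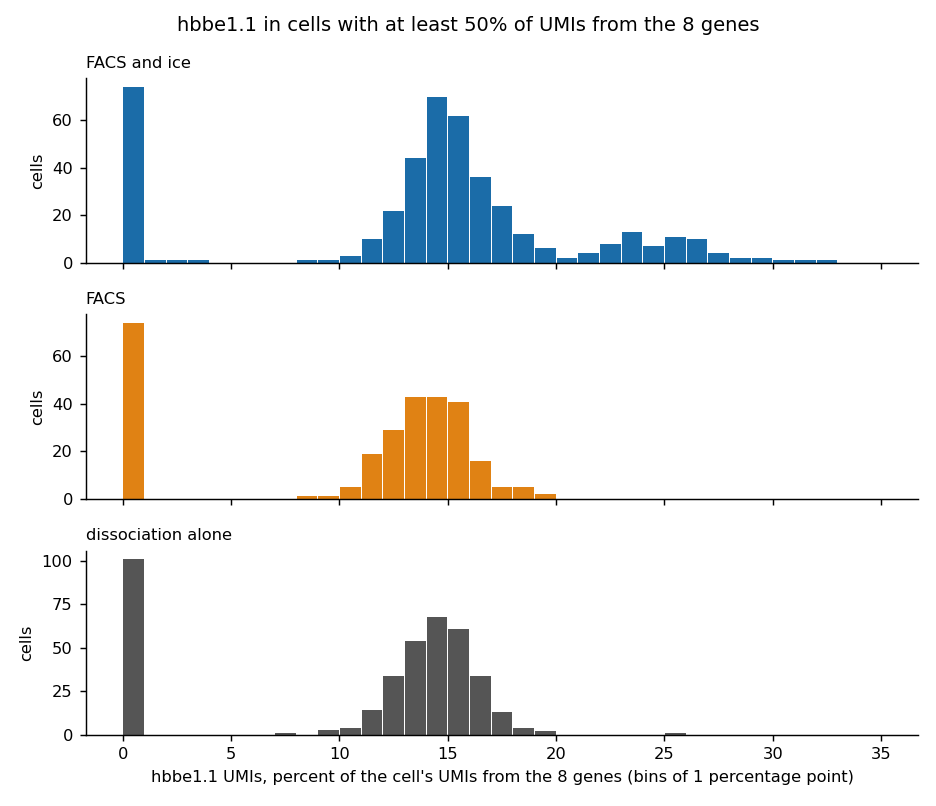
Number of globin-rich cells by the share of hbbe1.1 in the cell's UMIs from the 8 genes, in bins of 1 percentage point, for FACS and ice (top), FACS (middle) and dissociation alone (bottom). The lowest bin holds 74, 74 and 101 cells, a gap follows, the cells at 1% or more have medians of 15.4%, 14.3% and 14.5%, and 66 cells of FACS and ice lie at 20% or more.

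The cells with little hbbe1.1 had more hbbe1.2 per alpha transcript in all 3 libraries. hbbe1.2 reached 36.6, 31.5 and 29.9 UMIs per 100 alpha UMIs in them, against 24.7, 24.4 and 24.2 in the other globin-rich cells of FACS and ice, FACS and dissociation alone. hbbe3 had 13.4 per 100 alpha UMIs in the cells with little hbbe1.1 of FACS and ice, against 6.22 in the others, but 4.68 against 5.37 in FACS and 4.61 against 5.18 in dissociation alone. hbbe2 likewise had 3.69 against 2.83 in FACS and ice, 2.72 against 2.83 in FACS and 2.50 against 2.98 in dissociation alone. Erythroid genes were present on both sides. hemgn, a nuclear protein of erythroid cells, had a ratio per non-hemoglobin UMI of 0.651, 1.104 and 1.33 in cells with little hbbe1.1 over the others, and slc4a1a had 1.11, 1.17 and 1.24. Other listed genes differed more and not always in the same direction. cpox had ratios of 2.83, 1.27 and 0.179, and hmbsb had 1.97, 1.60 and 0.636, both genes of heme synthesis. aqp1a.1 had 0.577, 0.959 and 1.07. Some counts were small, with 1 cpox UMI in the cells with little hbbe1.1 of dissociation alone. The median of the 8 genes' share of all UMIs was 54.1%, 57.8% and 55.0% in the cells with little hbbe1.1, against 63.7%, 66.2% and 65.8% in the others. hbbe1.1 counts in this share, so a lower value in cells with little of it is partly built in, and nothing is read from it. Each library pools 10 larvae and the matrices do not say which larva a cell came from, so differences between larvae and between cells of a larva cannot be told apart.

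Gene names hid part of the hemoglobin RNA. The symbol hbae1 joined the identifiers ENSDARG00000089475 and ENSDARG00000088330, which the reference table of gene names calls hbae1.1 and hbae1.2. The first gave 33.9% of the hbae1 UMIs in FACS and ice, 34.0% in FACS and 39.9% in dissociation alone, with nearly the same shares in globin-rich cells (34.2%, 34.1% and 39.9%). By name these are copies of a gene, and how reads were divided between them was not tested. In the substitution tables both are 1 row. Names joined by semicolons, which the tables use for reads that fit several genes, held none of the 8 genes in any table.

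The gene whose reads most resembled the sum of the 8 was AL935210.1 (ENSDARG00000087390), with a Pearson correlation of log2(RPM + 1), where RPM is reads per 1000000, of 0.997 over the 43 cell type tables. These tables share libraries and may share free RNA, and the value is a description. The reference table names this identifier HBE1, the same name it gives to those of hbbe1.1, hbbe1.2 and hbbe2, so it is annotated as a beta-type hemoglobin gene that the symbol in the files does not show. It had 24356.5 CPM in FACS and ice, 42395.7 CPM in FACS and 25479.4 CPM in dissociation alone, above each of the 8. Counting hemoglobin with it and with zgc:163057 (hbae4 in the reference table, 30.7, 49.9 and 27.3 CPM), hemoglobin took 9.12%, 15.4% and 9.13% of all UMIs. Alpha over beta was 1.69, 1.97 and 1.98 UMIs for the 8 genes and 0.854, 0.926 and 0.919 with these 2 added. With these 2 added, 542, 311 and 459 cells had 50% or more of their UMIs from hemoglobin, against 434, 284 and 394 by the 8 genes. The hbbe1.1 split was not repeated in this wider set of cells. In cells with little hbbe1.1, AL935210.1 had 76.0, 74.0 and 78.9 UMIs per 100 alpha UMIs, against 50.04, 49.9 and 50.1 in the other globin-rich cells. How reads were divided between the beta genes was not tested. The next genes by likeness were hemgn (0.947), cahz (0.938), slc4a1a (0.932) and blvrb, a biliverdin reductase (0.908), which were at 374, 452, 162 and 378 RPM in the blood table of FACS and ice and at medians of 7.16, 12.8, 2.68 and 11.9 over the tables of other cell types.

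Detection of the 8 genes reached nearly all cells without erythroid markers. Of cells with 0 erythroid marker UMIs, 7153 of 7154 in FACS and ice, 3651 of 3652 in FACS and 8171 of 8173 in dissociation alone had at least 1 UMI of the 8 genes, at median depths of 3504, 2744 and 2033 UMIs. Thinned to 1000 UMIs per cell, with 980, 376 and 2146 shallower cells left out, the shares were 95.3%, 93.2% and 97.9%. Cells with at least 10 neuronal marker UMIs and 0 erythroid ones, at median depths of 3793, 2974 and 2799 UMIs, gave 95.4%, 94.1% and 98.5% after the same thinning. These neuronal cells are part of the cells with 0 erythroid marker UMIs, so they are no separate background. A count of 0 markers does not place a cell outside blood, since 76, 38 and 6 globin-rich cells missed the erythroid marker limit. Cells with 0 erythroid marker UMIs held at most 1076, 661 and 477 UMIs of the 8 genes. Whether the UMIs came from free RNA or from expression was not tested. The level was low, with a median of 5.36, 4.44 and 9.75 UMIs of the 8 genes per 1000 UMIs in cells without erythroid markers, and highest in dissociation alone. There the ratio FACS over dissociation alone turned round, with a median of 0.569 for the 8 genes against 1.66 over all cells, and FACS and ice over dissociation alone was 0.688. Cells without erythroid markers held 4.71%, 2.62% and 6.80% of all UMIs of the 8 genes.

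The mix of the 8 genes in cells without erythroid markers resembled that of globin-rich cells. hbae3 gave 26.9% of their globin UMIs in FACS and ice, 26.0% in FACS and 29.8% in dissociation alone, against 28.7%, 28.1% and 29.5% in globin-rich cells. hbbe1.2 was higher, at 20.4%, 20.9% and 18.1% against 17.2%, 17.5% and 16.9%. hbae1 was slightly lower, at 19.4%, 23.4% and 20.5% against 21.5%, 24.8% and 21.3%. As a result alpha over beta was 1.3999, 1.63 and 1.83 in cells without erythroid markers, against 1.71, 1.98 and 1.97 in globin-rich cells. The 2 sets of cells differed least in dissociation alone.

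In the tables of reads per cell type, the blood tables had the 8 genes at 58.3% (FACS and ice), 63.4% (FACS) and 61.2% (dissociation alone) of reads. The erythroid markers summed to 1659, 1570 and 1555 RPM there and to at most 530, 415 and 394 in the other tables, in each case in pharynx. Blood did not have the highest level of every marker. rhag had 18.0, 17.1 and 18.0 RPM in blood, beside 136, 153 and 173 in the highest other table of each library. blf was also higher in another table in each library, and tspo in FACS, with 305 RPM in blood and 343 in the highest other table. Outside blood the 8 genes took 0.446 to 6.19% of reads in FACS and ice, 0.245 to 9.14% in FACS and 0.625 to 5.61% in dissociation alone. The mix of the 8 differed from that in blood of the same library by 1.88 to 9.03% of globin reads over the 40 other tables. hbae5 had at least 250 reads in 1, 2 and 1 tables, and blood was among them each time.

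T-to-C substitutions, by which the study reads out 4sU, were frequent in hbae1 alone of the 8 genes. The paper describes removal of sequence variants for its bulk data, and whether the T-to-C changes here came from 4sU was not tested. The substitution tables give, per gene and cell type, the rate of each of the 12 base changes, printed here in percent. In blood, hbae1 had a T-to-C rate of 0.843% in FACS and ice, 0.876% in FACS and 0.942% in dissociation alone. hbbe3 had 0.272%, 0.190% and 0.0681%, and hbbe1.1 had 0.167%, 0.161% and 0.0948%. hbae1.3 had 0.0522%, 0.0488% and 0.0611%, and hbae3, hbae5, hbbe1.2 and hbbe2 lay between 0.0256 and 0.0499%. Over all tables with at least 250 reads, weighted by reads, the T-to-C rate of hbae1 was 0.843%, 0.874% and 0.941%, at the 88.0th, 90.3rd and 92.7th percentile of all genes, whose medians were 0.266%, 0.199% and 0.173%. The other 7 genes were below the gene median in all 3 libraries.

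The other base changes of the same reads are the background for this rate, and they were uneven too. In hbae1 the G-to-C rate exceeded the T-to-C rate in every table of every library, with 1.18%, 1.33% and 1.48% in blood. hbae1.3 had G-to-C at 0.891%, 1.03% and 1.42% and C-to-T at 0.721%, 0.835% and 1.139%. hbae3 had C-to-T at 0.665%, 0.779% and 0.988% and G-to-A at 0.694%, 0.756% and 0.648%. hbbe1.2 had A-to-G at 0.391%, 0.401% and 0.226%, and hbbe2 had A-to-C at 0.215%, 0.349% and 0.0946%. hbae5 had no rate above 0.135%. The T-to-C rate was the highest of the 12 in 25.2% of genes in FACS and ice, 20.4% in FACS and 15.9% in dissociation alone. Of the 8 genes it was the highest only in hbbe1.1, in FACS and ice and in FACS, so 1, 1 and 0 of 8.

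**Figure D3:**
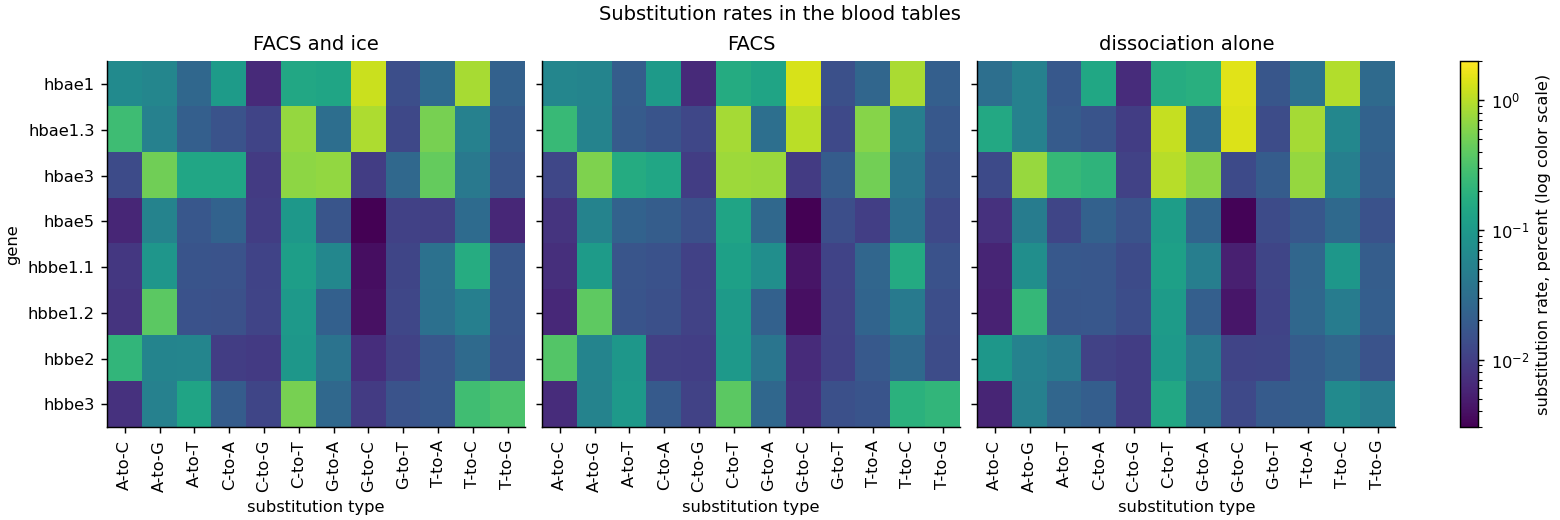
Rates of the 12 base changes (columns) for the 8 genes (rows) in the blood tables of FACS and ice (left), FACS (middle) and dissociation alone (right), in percent on a log color scale. hbae1 has bright cells at G-to-C (1.18 to 1.48%) and T-to-C (0.843 to 0.942%). hbbe3 is brighter at T-to-G in FACS and ice (0.320%) and FACS (0.218%) than in dissociation alone (0.0482%).

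Some rates of a gene moved together across cell types and others did not. Over the 43 tables the T-to-C rate of hbae1 had a Pearson correlation of 0.876 with its G-to-C rate, and T-to-C over G-to-C stayed between 0.578 and 0.953, while its correlations with A-to-G (0.0949) and C-to-A (0.164) were weak. For hbbe3 the T-to-C rate had correlations of 0.985 with C-to-T, 0.981 with T-to-G and 0.955 with A-to-T. For hbbe1.1 they were 0.955 with A-to-G and 0.947 with G-to-A. By contrast, the T-to-C rate of hbbe1.2 had a correlation of 0.0354 with A-to-G, its most frequent change, and that of hbae3 had -0.355 with G-to-A. These are descriptions over tables that share libraries and may share free RNA. The hbbe3 rate lay between 0.0454 and 0.461% over the tables of FACS and ice, 0.0267 and 0.624% in FACS and 0.0367 and 0.183% in dissociation alone. What gave rise to the T-to-C changes and to the other base changes was not tested.

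**Figure D4:**
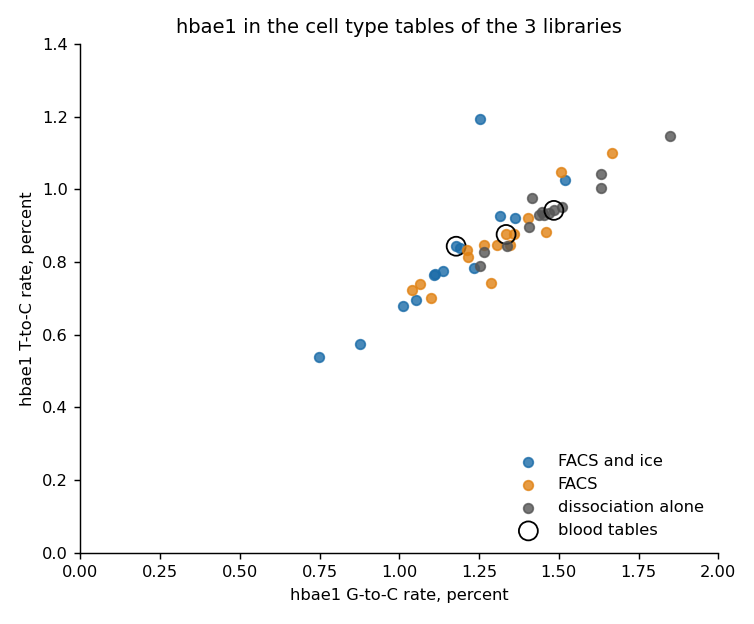
T-to-C rate of hbae1 (y axis, percent) against its G-to-C rate (x axis, percent) in the 43 cell type tables, colored by library, with the 3 blood tables circled. The G-to-C rate is above the T-to-C rate in every table, and T-to-C spans 0.539 to 1.19%.

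T-to-C rates were then compared between libraries. FACS and ice over dissociation alone had a median ratio of 1.295 over 7786 genes, with 38.2% past 1.5-fold higher and 7.86% lower, and 2 of the 8 passed higher and 0 lower. FACS over dissociation alone had a median of 1.09 over 7396 genes, with 25.0% past it higher and 15.6% lower, and again 2 of the 8 passed higher and 0 lower, which is the share found over all genes. FACS and ice over FACS had a median of 1.16 over 7482 genes, with 29.1% past it higher and 10.3% lower, and 0 of the 8 passed in either direction. The 2 genes were hbbe3, with ratios of 3.84 and 2.82 to dissociation alone, and hbbe1.1, with 1.76 and 1.70. hbae1, the gene with most T-to-C, was lower in both sorted libraries, with ratios of 0.896 and 0.929. For hbbe3 only some of the other changes moved along with it. FACS and ice over dissociation alone had ratios of 6.29 for T-to-G, 4.86 for A-to-T and 3.37 for C-to-T. A-to-G (1.01), G-to-A (0.872) and G-to-C (0.713) did not rise with them. In blood, T-to-G was 0.320% in FACS and ice, 0.218% in FACS and 0.0482% in dissociation alone.

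Reads with at least 2 T-to-C changes are counted as labeled in a second set of tables, taken here as reads because the column is named readcount. A gene was called labeled where these entries reached 10% of at least 250 reads. That held for 1.18% of genes in FACS and ice, 0.563% in FACS and 0.796% in dissociation alone, and for 1 of the 8 genes, hbae1, in each. Over all cell types hbae1 had 38.7% labeled reads in FACS and ice (2101498 of 5424855), 34.7% in FACS (3030311 of 8727393) and 43.1% in dissociation alone (2286009 of 5308842). hbbe1.1 had 1.85%, 1.78% and 0.781%, hbae1.3 had 0.787%, 1.32% and 0.750%, and hbbe1.2 had 0.258%, 0.192% and 0.167%. hbae3, with nearly as many reads as hbae1, had 192, 216 and 194 labeled reads in all, and hbae5 had 1, 0 and 0.

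This made hbae1 the main source of labeled reads. It alone gave 70.3% of all labeled reads of all cell types in FACS and ice, 86.3% in FACS and 82.1% in dissociation alone, and 92.5%, 92.3% and 96.1% of those in blood. Without hbae1, labeled reads fell to 0.446% of reads in FACS and ice, 0.251% in FACS and 0.264% in dissociation alone, against 1.46%, 1.75% and 1.43% with it. In the nervous system tables, where the 8 genes took 1.21%, 4.03% and 0.872% of reads, hbae1 still gave 18.3%, 61.7% and 26.0% of labeled reads. The labeled share of hbae1 in those tables was 37.4%, 33.7% and 42.1%, close to that in blood (38.9%, 34.9% and 43.2%). FACS had 3 tables far below the rest, macrophages with 2.97%, the lateral line table with 9.65% and pectoral fins with 14.1%, although their T-to-C rates (0.740%, 0.724% and 0.813%) were near those of other tables. Whether the T-to-C rates and the labeled shares count the same reads was not tested. In FACS and ice the hbae1 share lay between 23.7 and 56.2% over tables, and in dissociation alone between 35.7 and 53.5%.

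The lists of labeled genes per cell put hbae1, hbbe1.1, hbae1.3 and hbbe1.2 in the same order. hbae1 was marked as labeled in 79.9% of the cells that had it in FACS and ice (7594 of 9508), 79.6% in FACS (3597 of 4517) and 89.4% in dissociation alone (9817 of 10983). hbbe1.1 was marked in 24.2%, 33.2% and 14.5% of its cells and hbae1.3 in 11.1%, 16.4% and 11.8%. hbbe1.2 was marked in 9.03%, 10.7% and 6.47%, and hbae3 in 1.55%, 2.40% and 1.47%. Over all genes, 4.12%, 3.73% and 2.80% of the gene detections in cells were marked, above hbae3 in each library. A cell counts as soon as 1 of its molecules passes, so these shares grow with the number of molecules. Of cells with exactly 1 hbae1 UMI in the matrix, 60.1% (555 of 924), 57.5% (422 of 734) and 65.1% (526 of 808) were marked, and of cells with over 50 UMIs 99.7%, 100% and 100%. For hbae3, cells with 11 to 50 UMIs were marked in 0.382%, 0.244% and 0.531%, and cells with over 50 in 17.4%, 26.5% and 19.5%. For hbbe1.1, cells with 1 UMI were marked in 12.4%, 18.9% and 6.58%. The lists named hbae1 in 342, 348 and 285 cells, and hbae1.3 in 942, 938 and 653 cells, where the matrix had 0 UMIs of that gene.

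**Figure D5:**
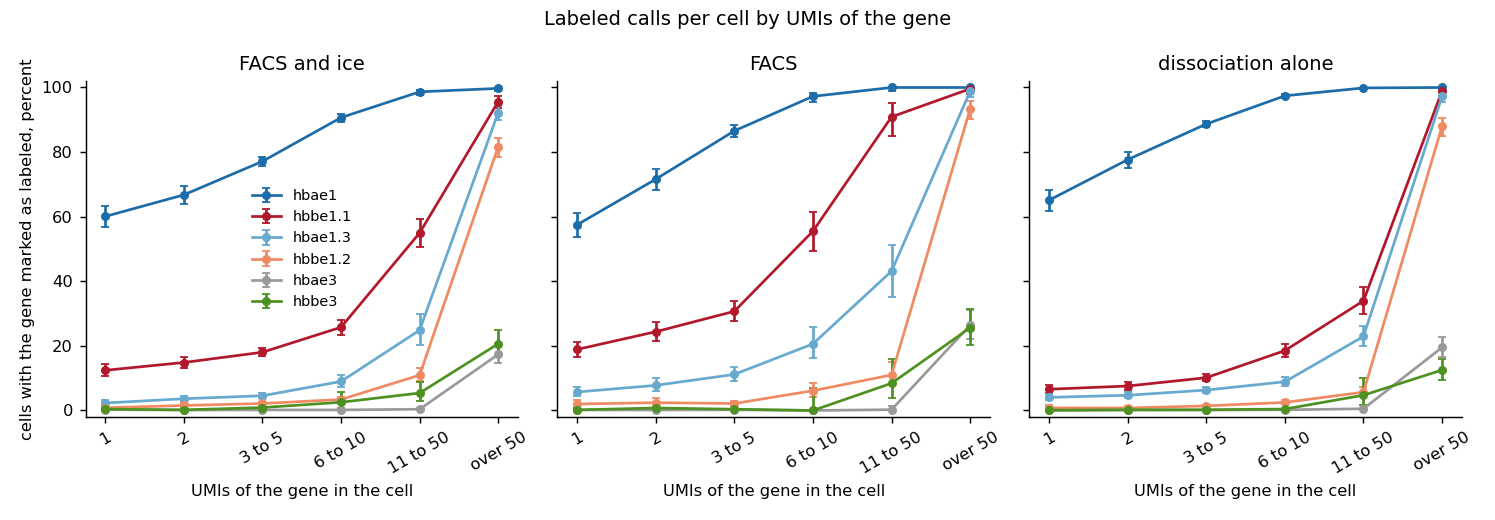
Percent of cells with a gene in which the per-cell list marks it as labeled (y axis, with exact 95% intervals), by the number of the gene's UMIs in the cell (x axis), for 6 of the 8 genes in FACS and ice (left), FACS (middle) and dissociation alone (right). hbae1 starts at 57.5 to 65.1% at 1 UMI, while hbae3 and hbbe3 stay at or under 26.5% even over 50 UMIs.

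Reads of the cell type tables over UMIs of the matrices were higher for the 8 genes than for most genes. The tables and the matrices may not hold the same cells and reads, so reads per molecule were not measured directly. The 8 genes had between 3.95 and 6.89 reads per UMI in FACS and ice, 10.0 and 17.3 in FACS and 4.51 and 7.55 in dissociation alone, against medians over all genes of 2.84, 6.95 and 3.30. hbae1.3 was the highest of the 8 in FACS and ice (6.89) and FACS (17.3), and hbae1 in dissociation alone (7.55). The 8 genes took a larger share of the reads in the tables (10.1%, 16.3% and 10.1%) than of the UMIs in the matrices (6.68%, 11.2% and 6.58%).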

How the data were processed

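Sequencing of 10x 3' libraries was demultiplexed with bcl2fastq 2.19, and reads were aligned and counted by the authors with Cell Ranger 6.1.1 on GRCz10, with SAMtools 1.14 among the tools named in their processing notes. The authors deposited raw UMI counts per gene and cell, tables of substitution rates (a ratio per gene and cell type, with read counts) over all reads and over reads with at least 2 T-to-C changes, and lists of labeled genes per cell. Cell types are those of the deposited tables. Doublets were not called.

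From these counts, UMIs were summed per library and scaled to CPM, and T-to-C rates were averaged over tables with at least 250 reads, weighted by reads. With 1 library per group, no test was run. Genes were called at 1.5-fold over at least 250 UMIs in each library, and labeled at 10% of at least 250 reads. Intervals are exact (Clopper-Pearson or Poisson, 95%). The text names the 8 genes, other hba and hbb genes, other globins, an erythroid list, and the 5 genes most alike by correlation of log2(RPM + 1). The genes and lists were chosen with earlier results of these data known, and the limits of 50% of UMIs per cell and of 1% hbbe1.1, and the singling out of zgc:163057, after values were seen. Scripts were tested on simulated data. Alternatives changed denominators, cells, read minimums and markers. Python 3.11.15, numpy 2.4.6, pandas 2.3.3, scipy 1.17.1 and matplotlib 3.10.9 were used.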

Additional observations from a re-analysis of the deposited data

Results flagged for a closer look

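The share of reads from the 8 genes differed in opposite directions between FACS and dissociation alone in different cell types. In the nervous system tables it was 4.03% in FACS and 0.872% in dissociation alone, and in the blood vessel tables it was 0.780% in FACS and 5.61% in dissociation alone. Erythroid markers moved with both, at 96.4 RPM (reads per 1000000) in FACS and 39.4 in dissociation alone for the nervous system, and at 54.2 and 167 for blood vessels. The difference between cell types was not tested, since each table comes from 1 library.

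The per-cell list of FACS also held 1182743 barcodes outside the cell list, of which 279687 had at least 1 of the 8 genes. hbae1 was listed in 125013 of them and marked as labeled in 44.0% (55045, interval 43.8 to 44.3). Over all genes, 147957 of 5511537 gene detections in the outside barcodes were marked. hbbe1.1 was marked in 11.99%, hbae1.3 in 2.33% and hbbe1.2 in 1.07% of the outside barcodes that held them. hbae1.3 and hbbe1.2 were below the share over all genes. The lists of the other libraries held no such barcodes.

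AL935210.1, outside the 8 genes by its symbol, had 24356.5 CPM in FACS and ice, 42395.7 CPM in FACS and 25479.4 CPM in dissociation alone. Its T-to-C rate was 0.0762%, 0.0729% and 0.0557%, and 0.895%, 0.905% and 0.477% of its reads were labeled.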

How the results depend on the processing

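The share of UMIs from the 8 genes was 6.76%, 11.3% and 6.71% in FACS and ice, FACS and dissociation alone without mitochondrial genes, 4.91%, 5.46% and 7.12% without the 5% of cells with most UMIs, 4.71%, 5.04% and 4.28% as a mean over cells, and 9.12%, 15.4% and 9.13% with AL935210.1 and zgc:163057 added (chosen after seeing the data). So dissociation alone had the highest share once the cells with most UMIs were left out. Erythroid cells of dissociation alone numbered 394 by the 50% rule, against 651 by markers. Detection in cells without erythroid markers was 95.3%, 93.2% and 97.9% after thinning, and 100% in neuronal cells of FACS and ice and of dissociation alone. Less the mean of the other 11 base changes, T-to-C of hbae1 was 0.698% in FACS and 0.744% in dissociation alone, and 4, 4 and 3 of the 8 genes were below 0. hbae1 had 239.8, 472.5 and 325.3 labeled entries per 100 UMIs, was marked in 79.9%, 79.6% and 89.4% of its cells, and had 38.9%, 34.9% and 43.2% labeled reads in blood alone (chosen after seeing the data).

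The median CPM ratio of FACS over dissociation alone was 1.31 in cells past the erythroid limit, 0.569 in cells with 0 erythroid UMIs and 0.980 in globin-rich cells (chosen after seeing the data). FACS and ice over FACS had 0.827, 1.12 and 0.995 in the same cells, and FACS and ice over dissociation alone had 0.688 in cells with 0 erythroid UMIs. In cells with 0 erythroid UMIs, FACS over dissociation alone turned to 0.638 for hbae1, 0.487 for hbae3, 0.557 for hbbe1.1, 0.645 for hbbe1.2, 0.654 for hbbe2 and 0.502 for hbbe3. There FACS and ice over FACS turned to 1.51 for hbbe3, 1.42 for hbbe1.1, 1.29 for hbae5, 1.05 for hbae1.3, 1.15 for hbae3, 1.09 for hbbe1.2 and 1.03 for hbbe2, and hbbe3 in FACS and ice over dissociation alone to 0.759. In globin-rich cells FACS over dissociation alone was 0.968 for hbae3, 0.945 for hbbe1.1 and 0.993 for hbbe2. Globin-rich cells were chosen on the summed level of the same genes, which holds their ratios near 1, so nothing is read from them. The cause of the turns in cells with 0 erythroid UMIs was not tested. Over all cells with hemoglobin left out of the total, more genes passed 1.5-fold. FACS over dissociation alone was then 1.60 for hbae1.3 and 1.60 for hbae5. FACS and ice over FACS was 0.648 for hbbe1.1 and 0.665 for hbae5.

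No paired analysis was possible because each group had 1 library, which also left none to leave out. Adding names that join genes was not run, as none held the 8 genes.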

Other observations

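Of the cells with any labeled gene, which were all cells of each list, 79.5% in FACS and ice, 78.0% in FACS and 88.9% in dissociation alone had hbae1 among their labeled genes. The median cell had 39, 29 and 18 labeled genes, and hbae1 was the only labeled gene in 3, 0 and 14 cells.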
